A study of Mus musculus with 12 samples.

Results

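The 34 genes described here make up 2 linked stress programmes of the cell: the amino acid response driven by the transcription factor ATF4 (19 genes) and the unfolded protein response of the endoplasmic reticulum, ER (15 genes). The members were taken from a list of gene names with no threshold on a measured value, though the list was drawn up with earlier results of these data known, and each was matched by mouse symbol to 1 of the 56748 gene IDs in the count files. Of the 34, 32 had enough counts to be tested, among 13535 genes tested in all. Asns and Stc2 did not. The RNA came from Eµ-Myc lymphoma, a mouse B cell tumour line in which Myc is driven by the immunoglobulin heavy chain enhancer. The lymphatic group (4 libraries) held tumour cells sorted from lymph nodes of C57BL/6J mice 11 days after injection, having spread there through lymphatic vessels. The hematogenous group (4 libraries) held tumour cells sorted from lymph nodes of C57BL/6J mice at day 18, having spread through the blood. The culture group (4 libraries) was the same line taken straight from the dish.

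Route and day changed together between the lymph node groups, so that they cannot be told apart, and sorting was described for lymph nodes only. The labels give no age or sex of the mice and no sorting gate, and name the tissue of the cultured cells as lymph node too. They do not say whether the libraries of a group came from separate animals or cultures, so p-values measure the spread between these libraries. The comparisons ask how the tumour cells' RNA differed after each route of spread from the dish, and between the routes.

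As background, cells that lack amino acids or accumulate unfolded proteins phosphorylate the translation factor eIF2 through kinases such as GCN2 (Eif2ak4) and PERK (Eif2ak3). Bulk translation then slows while the Atf4 mRNA is translated more, and ATF4 raises genes that make and import amino acids. In the ER, PERK acts beside IRE1 (Ern1) and ATF6, which raise chaperones, disulfide isomerases and degradation factors. B cells are known to need ER capacity when they secrete antibody, and MYC-driven tumours are known to lean on both programmes. The libraries measured mRNA, so eIF2 phosphorylation, ATF4 translation and Xbp1 splicing were not analysed here.

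The promoters are shown first because each programme has a short motif tied to it. For the ATF4 programme it is the core of the C/EBP-ATF response element (CARE), to which ATF4 dimers are known to bind. For the ER programme it is the ER stress response element (ERSE), to which ATF6 is known to bind with the factor NF-Y. RefSeq promoter windows of build GRCm38.p6, from 250 bases before to 50 after each annotated start, were given for 31 of the 34 genes. Slc7a5, Atf6 and Manf had none. The letters TGATGNAA (CARE core, N for any base, either strand) occurred in the windows of 4 of 18 ATF4 programme genes (22.2%), which were Trib3, Chac1, Asns and Slc7a11. They occurred in 1 of 13 ER programme genes (Herpud1, 7.69%) and in 4.51% of all 27025 genes of the table. The letters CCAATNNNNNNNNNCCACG (ERSE, either strand) occurred in 0 of 18 ATF4 programme genes. They occurred in 6 of 13 ER programme genes (46.2%), which were Hspa5, Hsp90b1, Creld2, Calr, Canx and Pdia6, against 37 of all 27025 genes (0.137%). A related motif that ends in the same CCACG, ERSE-II (ATTGG, any base, then CCACG, either strand), occurred in Herpud1 and in 12 of all 27025 genes (0.0444%). A match is a run of letters, not a measured binding site. The motif letters may have been defined from some of these same promoters, so the shares are a description and no test.

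The stretches below give 10 of the 12 stretches found, leaving out that of Trib3 and the farther of the 2 in Hsp90b1, with each match in capitals and 20 bases on either side, 5′ to 3′ on the gene's own strand, so that a match on the opposite strand reads as its reverse complement. Those of Hspa5, Hsp90b1 and Pdia6 belong to genes called higher in the lymphatic group against both other groups. The call of Pdia6 against culture was lost in 10 of 20 alternatives. That of Creld2 belongs to a gene called higher against the hematogenous group alone, a call lost in 14 of 20 alternatives. Those of Calr and Canx carry the same ERSE letters in genes that did not pass the test with all libraries in the fit. Without lymphatic library 4, Canx was called higher in the lymphatic group against both other groups. Asns, Chac1 and Slc7a11 show the CARE core in genes of the ATF4 programme, and Herpud1 holds both a CARE core and the ERSE-II letters.
Hspa5 (chr2:34772005-34772063, + strand): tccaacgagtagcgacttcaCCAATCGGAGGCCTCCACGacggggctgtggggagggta
Hsp90b1 (chr10:86705513-86705571, - strand): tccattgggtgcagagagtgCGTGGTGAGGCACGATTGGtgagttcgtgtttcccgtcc
Creld2 (chr15:88819500-88819558, + strand): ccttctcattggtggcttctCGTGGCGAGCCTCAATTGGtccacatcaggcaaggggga
Pdia6 (chr12:17266471-17266529, + strand): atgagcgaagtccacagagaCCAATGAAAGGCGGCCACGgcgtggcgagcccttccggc
Calr (chr8:84847055-84847113, - strand): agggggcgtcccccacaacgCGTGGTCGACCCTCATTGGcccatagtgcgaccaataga
Canx (chr11:50325780-50325838, - strand): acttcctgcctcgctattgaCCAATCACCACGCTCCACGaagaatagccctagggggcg
Herpud1 (chr8:94386297-94386407, + strand): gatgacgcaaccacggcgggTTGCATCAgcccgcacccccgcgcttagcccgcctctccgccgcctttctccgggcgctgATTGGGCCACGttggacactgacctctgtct
Asns (chr6:7693205-7693252, - strand): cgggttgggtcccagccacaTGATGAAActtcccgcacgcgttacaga
Chac1 (chr2:119351029-119351076, + strand): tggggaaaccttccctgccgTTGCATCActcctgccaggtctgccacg
Slc7a11 (chr3:50443633-50443699, - strand): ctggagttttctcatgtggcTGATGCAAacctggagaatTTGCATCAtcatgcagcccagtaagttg

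**Figure D1:**
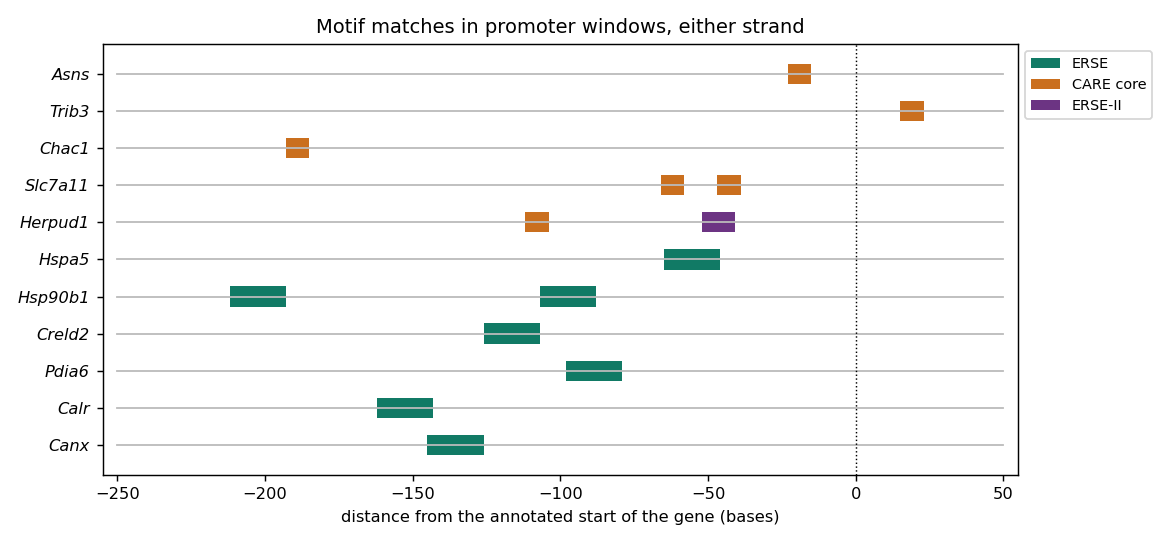
Position of each motif match in the promoter windows of the 11 genes that held one (x axis, bases from the annotated start; boxes, matches on either strand; colours, motif). The ERSE boxes all lie before the start, the first base of the one in Hspa5 at -65 and of the farther one in Hsp90b1 at -212, while the CARE core of Trib3 begins 15 bases after it.

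The libraries held 5286775 to 25302016 counts assigned to genes. The 7 B cell markers summed (such as Cd79a, Cd79b and Pax5) had counts in every group, with summed levels of 1577 to 2257 CPM (counts scaled to a common library total) in the lymphatic, 2754 to 2944 CPM in the hematogenous and 2101 to 2166 CPM in the culture libraries. The 13 T cell markers summed to 22.4 to 95.6 CPM in the lymphatic libraries, 6.58 to 17.3 CPM in the hematogenous and 0 to 1.61 CPM in culture, where 7 of them, Cd3d, Trbc1, Trbc2, Cd4, Cd8a, Cd5 and Themis, had no count. The 11 macrophage and monocyte markers summed to 32.1 to 74.6, 29.1 to 34.5 and 17.9 to 22.9 CPM in the lymphatic, hematogenous and culture libraries. Of these, Lyz2, Fcgr1, C1qa, C1qb and C1qc had no count in culture, and Adgre1, Cd68 and Mrc1 averaged least there. Csf1r and Itgam went the other way, averaging 3.755, 1.49 and 8.54 CPM and 0.535, 0.81 and 4.89 CPM in the same order of groups. Ms4a7 averaged 0.347, 0.0944 and 0.355 CPM. The 10 plasma cell markers summed to 375 to 535, 416 to 481 and 344 to 363 CPM in that order of groups, most of it Irf4 and Xbp1. Sdc1 averaged 24.4, 11.8 and 29.1 CPM, while Jchain, Prdm1 and Tnfrsf17 averaged under 3 CPM in each group and Ighg1, Ighg2b and Ighg2c had no count in culture. NK cell markers summed to 1.29 to 5.34, 0.19 to 1.08 and 18.8 to 22.9 CPM (in culture mostly Klrb1c), stromal and endothelial markers (mostly Pecam1) to 80.2 to 115, 139.6 to 168 and 76.2 to 80.7 CPM with Ccl21a at 0 throughout, and erythroid markers to 2.30 to 15.1, 3.12 to 6.36 and 11.3 to 29.9 CPM (in culture mostly Hbb-bt). The globin genes Hba-a1 and Hba-a2 had no count in culture, and Hbb-bs averaged 3.10, 1.45 and 0.0389 CPM in the same order of groups. In bulk RNA, fewer cells of a type and less RNA per cell cannot be told apart. The part of these cells in the results below was not tested.

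Lymphatic library 4 stood apart: ribosomal protein genes took 15.95% of its counts, against 7.61% to 9.86% in the other 11 libraries, and its T cell marker sum was the highest at 95.6 CPM. Of the 32 tested members it held the highest value of its group for 15 and the lowest for 11. Culture library 4 had the largest share of reads assigned to no gene (36.5%, against 30.3% to 33.98% in the others). Member results whose call changed without lymphatic library 4 are given both ways.

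Per kilobase of exon, ER chaperones were the most abundant members. The mean level over the 12 libraries was 296 CPM per kb for Hsp90b1, 285 for Calr and 238 for Canx, then 197 for the serine synthesis enzyme Phgdh, 189 for Hspa5, 143 for Psat1 and 125 for Atf4. At the other end of the tested members stood the sensor kinase Ern1 at 0.910 CPM per kb and the cystine transporter Slc7a11 at 0.0662 CPM per kb. Summed over the 19 ATF4 programme genes, the level was 3568 ± 129 CPM in the lymphatic, 2980 ± 242 CPM in the hematogenous and 2666 ± 103 CPM in the culture libraries (SD, n = 4 each). Summed over the 15 ER programme genes it was 6323 ± 702, 4991 ± 289 and 5000 ± 146 CPM in the same groups. A few abundant genes dominate such sums. Values varied least within culture, where the median coefficient of variation over the 32 tested members was 6.95%, and more in the lymph node libraries, at 24.4% in the lymphatic and 14.9% in the hematogenous group.

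**Figure D2:**
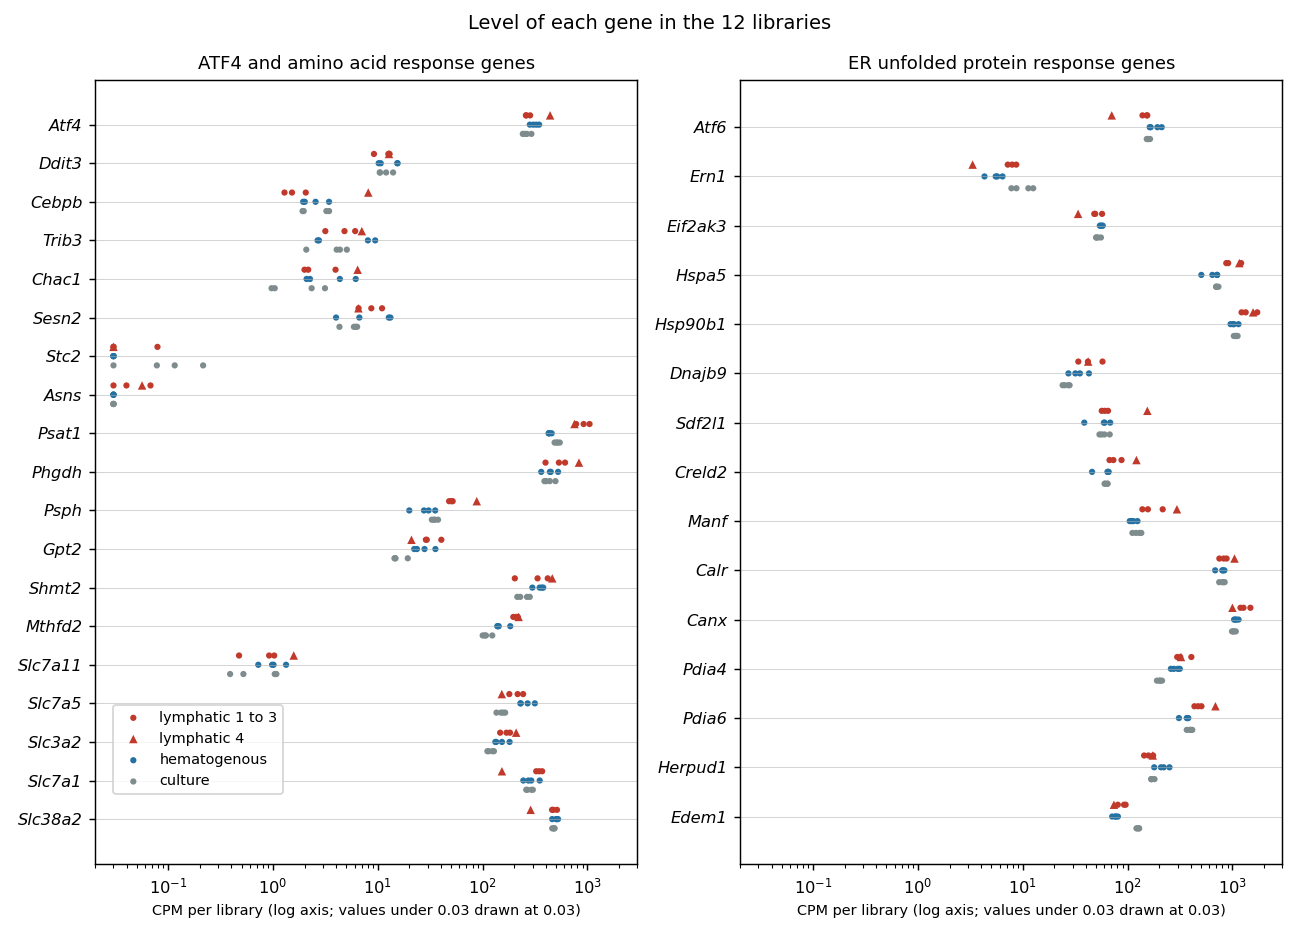
Level of the 34 genes in each of the 12 libraries (x axis, CPM on a log axis with values under 0.03 drawn at 0.03; 1 row per gene; red, lymphatic with library 4 as a triangle; blue, hematogenous; grey, culture). Psat1 and Psph separate the lymphatic libraries from the rest, Edem1 separates culture from both lymph node groups, and Asns and Stc2 lie at or near 0 in all libraries.

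Differences below are log2 fold changes with an approximate standard error (SE), the group named first over the other, from edgeR's quasi-likelihood test. A gene is said to have risen or fallen where its p-value, adjusted over all 13535 genes, was under 0.05. In the lymphatic group against culture, 5 of 17 tested ATF4 programme genes rose and 0 fell (29.4% called), and 6 of 15 ER programme genes rose and 1 fell (46.7% called), beside 26.4% of all genes tested (13.4% higher, 13.0% lower). The ATF4 share was near that of all genes, while the median log2 fold change was 0.46 over the ATF4 programme, 0.42 over the ER programme and 0.038 over all genes. In the hematogenous group against culture, 3 of 17 ATF4 programme genes rose and 0 fell (17.6% called), and 2 of 15 ER programme genes rose and 2 fell (26.7% called), beside 27.8% of all genes (13.9% in each direction). Neither share was above that of all genes, and the median log2 fold changes were 0.33, -0.047 and -0.00075. In the lymphatic against the hematogenous group, 3 of 17 ATF4 programme genes were higher and 0 lower (17.6% called), and 5 of 15 ER programme genes were higher and 1 lower (40.0% called), beside 22.3% of all genes (11.4% higher, 10.9% lower). The medians there were 0.036, 0.30 and 0.032. The 3 comparisons share libraries and are not independent of one another. No ATF4 programme gene was lower in any of the 3 comparisons by DESeq2 or limma-voom either, and at an unadjusted p under 0.05 the counts of lower genes were 0, 0 and 1. Without lymphatic library 4, though, Psat1 was called lower in the hematogenous group against culture and Atf4 lower in the lymphatic against the hematogenous group.

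Without that library, which belongs to neither group but enters the shared estimate of spread, the ATF4 programme calls in the hematogenous group against culture were 8 of 17, with Atf4, Chac1, Shmt2 and Slc3a2 higher and Psat1 lower in addition. In the same fit 43.1% of all genes were called, so that this share too was near that of all genes.

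**Figure D3:**
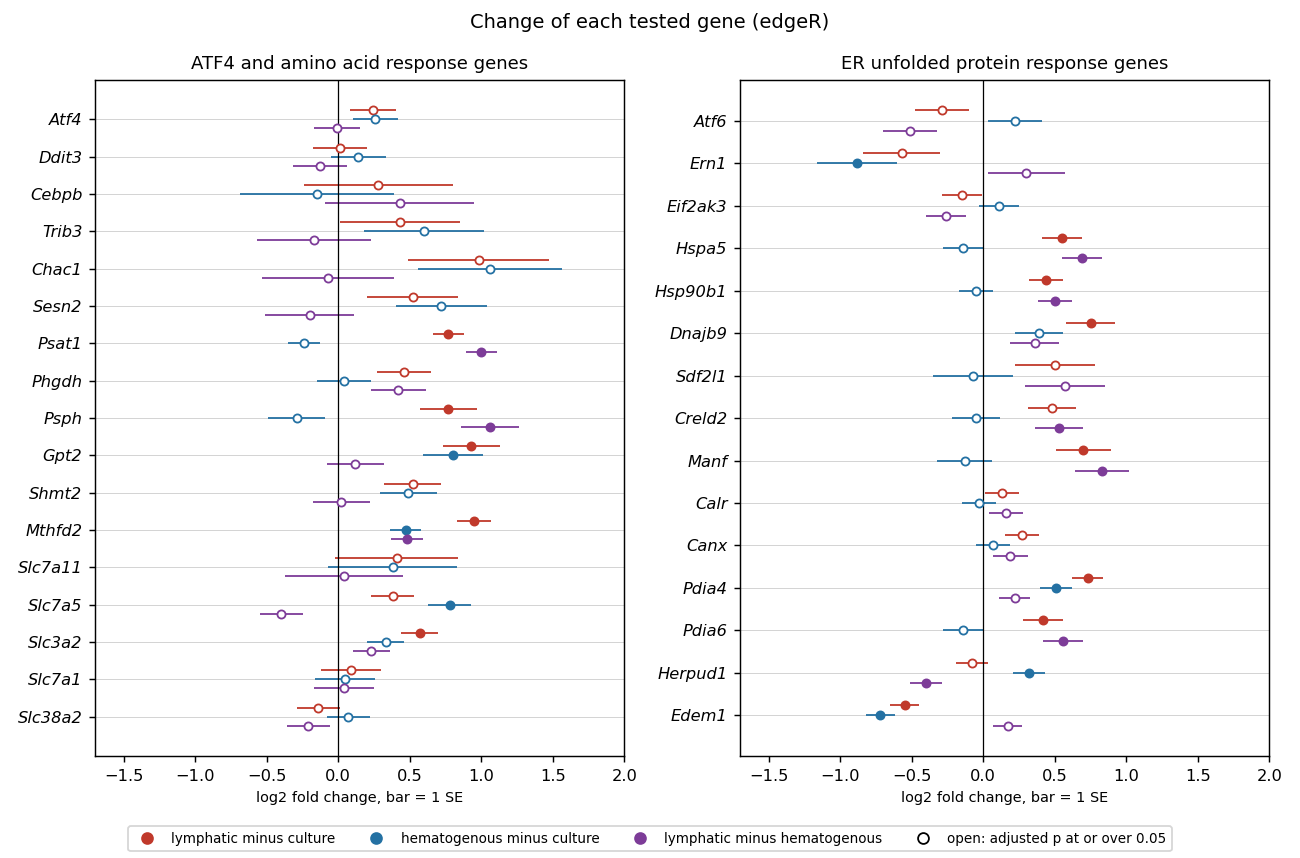
Log2 fold change of the 32 tested genes in the 3 comparisons (x axis; points with bars of 1 SE; filled, adjusted p under 0.05; open, at or over 0.05). Most filled points lie right of 0 in the comparisons of the lymphatic group with culture and with the hematogenous group. Edem1 lies left of 0 in both lymph node groups against culture.

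The factors and feedback genes of the ATF4 programme gave 0 calls of 6 tested in each comparison, also by DESeq2 and limma-voom; at an unadjusted p under 0.05 only Sesn2 in the hematogenous group against culture passed. Atf4 had 284, 260.5, 259 and 439.8 CPM in the lymphatic, 346, 324, 282 and 304 CPM in the hematogenous and 292, 242, 264 and 253 CPM in the culture libraries. The groups overlapped, and lymphatic library 4 was far above the other 3 of its group. The log2 fold changes of Atf4 were 0.24 ± 0.16 for lymphatic against culture (adjusted p = 0.287), 0.26 ± 0.16 for hematogenous against culture (adjusted p = 0.266) and -0.01 ± 0.16 for lymphatic against hematogenous (adjusted p = 0.961). Without lymphatic library 4 the second became a call at the same size (0.26, adjusted p = 0.0163), the third also became one (-0.24, adjusted p = 0.0467), and the first was 0.02.

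Ddit3 encodes CHOP, a factor that ATF4 and PERK signalling raise in severe stress. It stayed low, at 9.17 to 12.9 CPM in the lymphatic, 10.2 to 15.4 CPM in the hematogenous and 10.4 to 14.0 CPM in the culture libraries. Its log2 fold changes were 0.01, 0.14 and -0.13 in the 3 comparisons, each with an SE of 0.19. Its exons overlap a gene on the opposite strand, Mars, as those of Cebpb, Psph, Shmt2, Manf and Pdia6 overlap protein-coding or processed transcripts there. The strand setting of the counting is not given in the sources used here, so reads of such pairs may not have been told apart. On the same strand, the exons of Ddit3 overlap a second annotated gene of that name, and the other ID with the symbol had 0 counts. Those of Manf overlap Rbm15b on the same strand, and those of Hsp90b1 a processed transcript. How reads in such overlaps were counted was not examined, so the level of Ddit3 is uncertain. Cebpb, a partner of ATF4 and CHOP, had 1.28, 1.51, 2.05 and 8.10 CPM in the lymphatic, 1.94 to 3.42 CPM in the hematogenous and 1.91 to 3.42 CPM in the culture libraries. Without lymphatic library 4 its log2 fold change against culture was -0.76 (adjusted p = 0.061), in place of 0.28 (adjusted p = 0.736).

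Trib3, a pseudokinase that damps ATF4 activity, and Chac1, which breaks down glutathione, are among the genes that answer ATF4 most strongly in other cells. Trib3 had 4.80, 3.15, 6.07 and 7.03 CPM in the lymphatic, 8.03, 9.43, 2.74 and 2.66 CPM in the hematogenous and 4.04, 4.34, 5.05 and 2.07 CPM in the culture libraries. Chac1 had 2.16, 1.99, 3.94 and 6.41 CPM in the lymphatic, 4.33, 6.14, 2.25 and 2.09 CPM in the hematogenous and 2.33, 3.13, 0.967 and 1.04 CPM in the culture libraries. Both overlapped between all groups, and hematogenous libraries 1 and 2 were above libraries 3 and 4. The same split appeared for Sesn2, a leucine-binding inhibitor of mTORC1, at 13.2 and 12.7 against 6.65 and 3.99 CPM in the hematogenous group. Sesn2 had 6.52 to 11.0 CPM in the lymphatic and 4.30 to 6.34 CPM in the culture libraries. The log2 fold change of Chac1 was 0.98 ± 0.49 for lymphatic against culture (adjusted p = 0.162; 0.53 and 0.376 without lymphatic library 4) and 1.06 ± 0.50 for hematogenous against culture (adjusted p = 0.142; 0.0466 without lymphatic library 4).

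Asns and Stc2 were close to absent. Asns, which makes asparagine and is a textbook ATF4 target, had 1, 1, 0 and 1 counts in the lymphatic libraries and 0 in all hematogenous and culture libraries, 3 counts in all 12. A floor of 3 counts corresponds to 0.0427 CPM over the lymphatic, 0.0753 CPM over the hematogenous and 0.082 CPM over the culture group, by counting error only. All 1917 windows of 100 bases along its reference transcript occurred in no other gene, as did all those of Stc2. Stc2, a secreted glycoprotein, had 1 count in the lymphatic, 0 in the hematogenous and 4 in the culture libraries. Both genes were thus listed at or near 0 in every group; the reads behind these counts were not analysed here.

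Of the 3 serine synthesis genes, Psat1 and Psph rose in the lymphatic group against both other groups. Psat1, the aminotransferase of the pathway, had 919, 1046, 779 and 752 CPM in the lymphatic, 426, 434, 428 and 455 CPM in the hematogenous and 519, 506, 544 and 485 CPM in the culture libraries. Every lymphatic library lay above all 8 others, and every hematogenous library lay below culture. The log2 fold changes of Psat1 were 0.77 ± 0.11 for lymphatic against culture (adjusted p = 0.00021), -0.24 ± 0.11 for hematogenous against culture (adjusted p = 0.141; 0.0301 without lymphatic library 4) and 1.00 ± 0.11 for lymphatic against hematogenous (adjusted p = 7.57e-05). Psph, the phosphatase of the last step, had 47.8, 51.7, 50.5 and 87.8 CPM in the lymphatic, 27.5, 30.5, 35.2 and 19.9 CPM in the hematogenous and 37.5, 34.4, 34.9 and 32.7 CPM in the culture libraries. The lymphatic values lay above both other groups, with library 4 far above the rest. Psph rose by 0.77 ± 0.20 against culture (adjusted p = 0.0124) and by 1.06 ± 0.20 against the hematogenous group (adjusted p = 0.00244). Without lymphatic library 4 these were 0.51 (adjusted p = 0.00747) and 0.80 (adjusted p = 0.000343).

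Phgdh, which opens the pathway, did not pass the test. It had 534, 398, 611 and 829 CPM in the lymphatic, 446, 524, 438 and 362 CPM in the hematogenous and 495, 437, 388 and 405 CPM in the culture libraries. The groups overlapped, and the log2 fold change was 0.46 ± 0.19 for lymphatic against culture (adjusted p = 0.0887; 0.25 and 0.182 without lymphatic library 4, its highest value). Only 62.7% of the 100-base windows of its transcript occurred in no other gene, since 8 annotated genes share its sequence, so its counts are uncertain. Gpt2, the mitochondrial enzyme that makes alanine from pyruvate, had 40.3, 29.3, 28.7 and 20.9 CPM in the lymphatic, 35.4, 27.9, 23.6 and 22.2 CPM in the hematogenous and 14.7, 19.3, 14.4 and 14.6 CPM in the culture libraries. All lymph node libraries lay above all culture libraries. Gpt2 rose by 0.93 ± 0.20 in the lymphatic (adjusted p = 0.00425) and by 0.80 ± 0.21 in the hematogenous group (adjusted p = 0.00907), and the difference between those groups was 0.12 ± 0.20 (adjusted p = 0.699).

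Mthfd2 and Shmt2 carry serine carbon into the mitochondrial folate pathway, which feeds purine and thymidylate synthesis. Mthfd2 had 216, 209, 196 and 220.4 CPM in the lymphatic, 142, 183, 139 and 138 CPM in the hematogenous and 107, 105, 123 and 100.0 CPM in the culture libraries. The 3 groups did not overlap and stood in the order lymphatic, hematogenous, culture from high to low. Mthfd2 rose by 0.95 ± 0.12 in the lymphatic (adjusted p = 4.16e-05) and by 0.47 ± 0.11 in the hematogenous group (adjusted p = 0.00682) against culture, and was higher by 0.48 ± 0.11 in the lymphatic than in the hematogenous group (adjusted p = 0.00866). It was the only member called in all 3 comparisons. Shmt2 had 334, 203, 417 and 461 CPM in the lymphatic, 378, 366, 349 and 298 CPM in the hematogenous and 265, 281, 214 and 228 CPM in the culture libraries. The lymphatic values spread across both other groups while all hematogenous values lay above culture, and neither log2 fold change against culture (0.52 ± 0.20 and 0.49 ± 0.20) passed (adjusted p = 0.0737 and 0.0864; 0.125 and 0.0215 without lymphatic library 4).

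Of the transporters, Slc7a5 and Slc3a2 form the exchanger that imports leucine and other large neutral amino acids. Slc7a5 had 243, 179.6, 215 and 152 CPM in the lymphatic, 268, 314, 229 and 231 CPM in the hematogenous and 164, 157, 149.5 and 135 CPM in the culture libraries. The hematogenous libraries lay above all culture libraries, while lymphatic library 4 fell within the culture range. Slc7a5 rose by 0.78 ± 0.15 in the hematogenous group against culture (adjusted p = 0.00126), and its log2 fold change in the lymphatic group was 0.38 ± 0.15 (adjusted p = 0.0747; 0.48 and 0.00511 without lymphatic library 4). The difference between the lymph node groups was -0.40 ± 0.15 (adjusted p = 0.069). Slc3a2, the shared heavy chain, had 182, 147, 169 and 209 CPM in the lymphatic, 153, 181, 135 and 132 CPM in the hematogenous and 124, 128, 111 and 114 CPM in the culture libraries. All lymph node libraries lay above culture; Slc3a2 rose by 0.57 ± 0.13 in the lymphatic group (adjusted p = 0.00544), and the hematogenous value was 0.33 ± 0.13 (adjusted p = 0.0742; 0.0135 without lymphatic library 4).

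The other transporters did not pass in any comparison. Slc7a1, a carrier of arginine and lysine, had 369, 324, 346 and 153 CPM in the lymphatic, 244 to 350.1 CPM in the hematogenous and 260.4 to 301 CPM in the culture libraries. Slc38a2, a sodium-coupled carrier of small neutral amino acids, had 459, 512, 472 and 287 CPM in the lymphatic, 461 to 524 CPM in the hematogenous and 461 to 486 CPM in the culture libraries. Lymphatic library 4 was the lowest of all 12 for both, and without it Slc7a1 was higher in the lymphatic group than in culture by 0.30 (adjusted p = 0.0332). Slc7a11, the light chain of the cystine exchanger, had 136 counts in all 12 libraries, at 0.473 to 1.57 CPM in the lymphatic, 0.723 to 1.33 CPM in the hematogenous and 0.389 to 1.07 CPM in the culture libraries. At that level a change of its size, 0.41 ± 0.43 for lymphatic against culture, was not detectable.

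**Figure D4:**
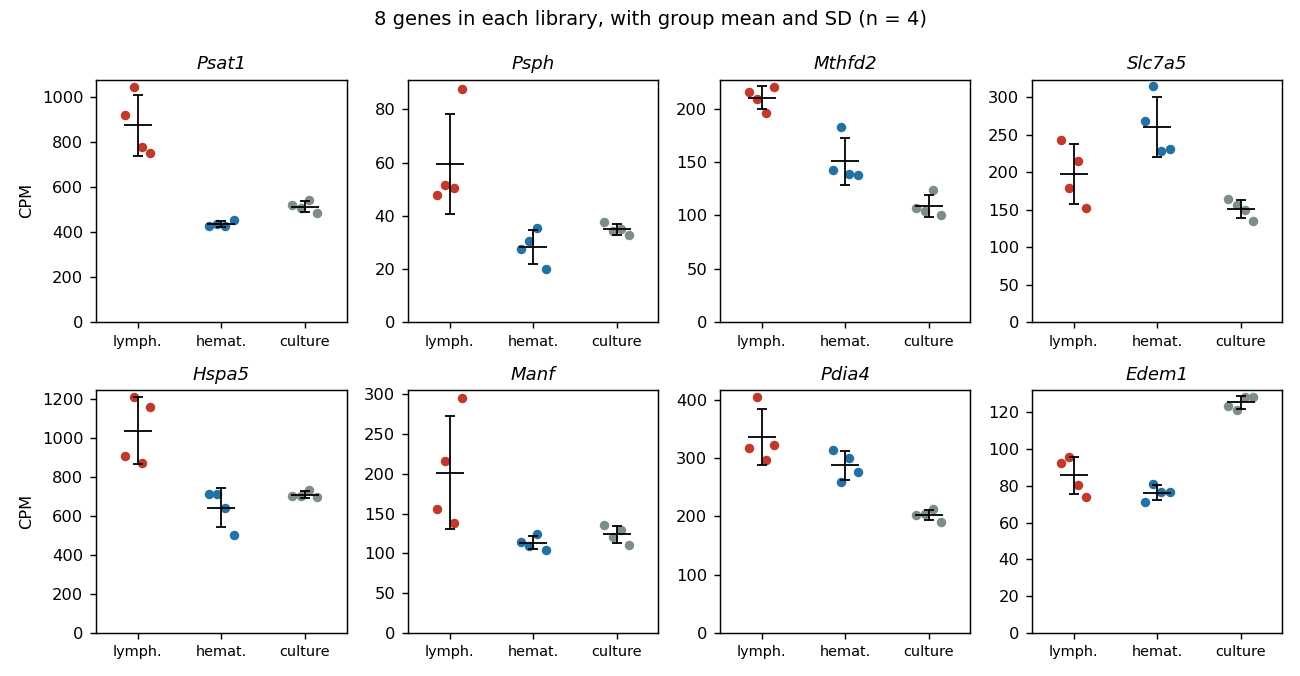
CPM of 8 genes in each library (y axis, linear from 0; points, libraries; bars, group mean and SD, n = 4; lymphatic left, hematogenous middle, culture right). Psat1, Psph, Hspa5 and Manf are higher in every lymphatic library than in all others, Slc7a5 is higher in every hematogenous library than in culture and overlaps the lymphatic ones, and Pdia4 is above and Edem1 below culture in both lymph node groups.

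None of the 3 ER stress sensors rose by this test with all libraries in the fit. Atf6 had 154, 152, 139 and 70.5 CPM in the lymphatic, 211, 162, 166 and 192 CPM in the hematogenous and 152, 156, 164 and 156 CPM in the culture libraries. Every lymphatic library lay below every hematogenous one, at a log2 fold change of -0.51 ± 0.19 (adjusted p = 0.0771; -0.31 and 0.017 without lymphatic library 4). Its hematogenous value against culture was 0.22 ± 0.19 (adjusted p = 0.454), and without that library it was called higher at the same size (0.22, adjusted p = 0.0448). Ern1, which encodes IRE1, the kinase and nuclease that splices Xbp1 mRNA, had 7.91, 8.65, 7.18 and 3.32 CPM in the lymphatic, 5.70, 6.40, 4.30 and 5.51 CPM in the hematogenous and 7.78, 8.69, 11.3 and 12.6 CPM in the culture libraries. All hematogenous values lay below all culture values, and Ern1 fell by 0.88 ± 0.28 there on the log2 scale (adjusted p = 0.0297). That call was lost with limma-voom and when 5 single libraries were left out in turn, among 7 alternatives in all. Eif2ak3, which encodes PERK, had 33.7 to 57.0 CPM in the lymphatic, 54.3 to 57.8 CPM in the hematogenous and 50.01 to 55.6 CPM in the culture libraries, and its log2 fold changes were -0.15, 0.11 and -0.26, each with an SE of 0.14.

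Among the 8 chaperones and folding factors, Hspa5, Hsp90b1, Manf and Dnajb9 rose in the lymphatic group against culture. Hspa5, the ER Hsp70 known as BiP, had 910.3, 1210.0, 874 and 1162 CPM in the lymphatic, 714, 713, 643 and 505 CPM in the hematogenous and 701, 704, 735 and 699 CPM in the culture libraries. Each lymphatic library was above all 8 others, and the hematogenous values overlapped culture. Hspa5 rose by 0.55 ± 0.14 against culture (adjusted p = 0.00921) and by 0.69 ± 0.14 against the hematogenous group (adjusted p = 0.00311), and its hematogenous value against culture was -0.14 ± 0.14 (adjusted p = 0.506). Hsp90b1, the ER Hsp90 known as GRP94, had 1338, 1724, 1222 and 1574 CPM in the lymphatic, 1142, 1015, 1033 and 959 CPM in the hematogenous and 1088, 1069, 1120.0 and 1031 CPM in the culture libraries. The lymphatic values again lay above both other groups. The log2 fold changes of Hsp90b1 were 0.44 ± 0.12 against culture (adjusted p = 0.0127) and 0.50 ± 0.12 against the hematogenous group (adjusted p = 0.00834). In the hematogenous group against culture 0 of the 8 were called, where DESeq2 and limma-voom also gave 0 and 1, Dnajb9, passed an unadjusted p under 0.05.

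Manf, a small secreted factor of the ER stress response, had 156, 216, 138 and 295 CPM in the lymphatic, 114, 109.8, 124 and 105 CPM in the hematogenous and 135, 120.2, 129.6 and 111 CPM in the culture libraries. All lymphatic values lay above both other groups, the lowest of them close to the highest culture value. Manf rose by 0.70 ± 0.19 against culture (adjusted p = 0.0152; 0.45 and 0.00957 without lymphatic library 4) and by 0.83 ± 0.19 against the hematogenous group (adjusted p = 0.00727; 0.58 and 0.00201 without it). Without culture library 4 the first was 0.66 at an adjusted p of 0.051. Dnajb9, a co-chaperone of BiP, had 57.6, 41.8, 33.8 and 42.0 CPM in the lymphatic, 27.2, 35.0, 31.7 and 42.7 CPM in the hematogenous and 27.9, 24.0, 25.04 and 27.1 CPM in the culture libraries. The lymphatic libraries lay above culture and overlapped the hematogenous ones, and Dnajb9 rose by 0.75 ± 0.17 against culture (adjusted p = 0.0052).

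Creld2, a folding factor induced by ER stress, had 67.2, 87.4, 73.1 and 121 CPM in the lymphatic, 64.95, 65.9, 64.2 and 45.8 CPM in the hematogenous and 64.0, 60.3, 64.3 and 60.8 CPM in the culture libraries. The lymphatic values lay above the others, by little in library 1. Creld2 was higher by 0.53 ± 0.17 than in the hematogenous group (adjusted p = 0.0411), but that call was lost without lymphatic library 4 (0.32, adjusted p = 0.0511) and in 13 other alternatives. Sdf2l1, a partner of BiP, had 56.6, 60.5, 64.98 and 154 CPM in the lymphatic, 38.6 to 68.2 CPM in the hematogenous and 53.9 to 67.4 CPM in the culture libraries. Its log2 fold change against culture was 0.50 ± 0.28 (adjusted p = 0.216) and 0.02 without lymphatic library 4. Calr and Canx, the lectin chaperones that hold newly made glycoproteins, did not pass: Calr had 750.2 to 1046, 684 to 838 and 747 to 843 CPM, and Canx 999.5 to 1483, 1037 to 1144 and 990.5 to 1076 CPM, in the lymphatic, hematogenous and culture libraries. Without lymphatic library 4, the lowest of its group for Canx, that gene was higher in the lymphatic group than in culture by 0.35 (adjusted p = 0.00316) and than in the hematogenous group by 0.27 (adjusted p = 0.0171).

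The disulfide isomerases form and rearrange disulfide bonds of folding proteins. Pdia4 had 318, 405, 297 and 323 CPM in the lymphatic, 314, 259, 301 and 276 CPM in the hematogenous and 202, 204, 213 and 190.4 CPM in the culture libraries. All 8 lymph node libraries lay above all culture libraries. Pdia4 rose by 0.73 ± 0.11 in the lymphatic (adjusted p = 0.00032) and by 0.51 ± 0.11 in the hematogenous group (adjusted p = 0.00377), and the difference between those groups was 0.22 ± 0.11 (adjusted p = 0.168). Pdia6 had 434, 506, 470.1 and 688 CPM in the lymphatic, 373, 367, 379 and 309 CPM in the hematogenous and 414, 391.7, 400.1 and 366 CPM in the culture libraries. The lymphatic values lay above both other groups. Pdia6 was higher than in the hematogenous group by 0.56 ± 0.14 (adjusted p = 0.0105; 0.39 and 0.00233 without lymphatic library 4) and than in culture by 0.42 ± 0.14 (adjusted p = 0.0368; 0.25 and 0.0281 without it). The second call was lost in 10 alternatives, among them each of the 4 that left out a culture library.

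Of the 2 ER-associated degradation genes, Edem1 fell in both lymph node groups against culture. Edem1, a lectin that sends misfolded glycoproteins to degradation and a known target of XBP1, had 92.4, 95.6, 80.6 and 73.9 CPM in the lymphatic, 71.2, 80.7, 76.6 and 76.5 CPM in the hematogenous and 124, 121, 129 and 128 CPM in the culture libraries. Every lymph node library lay below every culture library. Edem1 fell by 0.55 ± 0.10 in the lymphatic (adjusted p = 0.00131) and by 0.72 ± 0.10 in the hematogenous group (adjusted p = 0.000121) on the log2 scale. Between the routes its log2 fold change was 0.17 ± 0.10 (adjusted p = 0.256; 0.23 and 0.0434 without lymphatic library 4). Herpud1, which organises the degradation complex in the ER membrane, had 158, 144, 175 and 174 CPM in the lymphatic, 251, 179, 221 and 208 CPM in the hematogenous and 180.5, 169, 168 and 169 CPM in the culture libraries. All lymphatic values lay below all hematogenous ones, and hematogenous library 2 fell just under culture library 1. Herpud1 fell by 0.40 ± 0.11 in the lymphatic against the hematogenous group on the log2 scale (adjusted p = 0.0213) and rose by 0.32 ± 0.11 in the hematogenous group against culture (adjusted p = 0.0472). The call against culture was lost in 11 alternatives, and the one between the routes without hematogenous library 1 or 3, with only those groups in the fit and with no low-count filter.

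Of the 6 genes with ERSE letters, Hspa5, Hsp90b1 and Pdia6 rose in the lymphatic group against culture, and with Creld2 against the hematogenous group, while Calr and Canx did not pass. The calls of Pdia6 against culture and of Creld2 were lost in 10 and 14 alternatives, and Canx was called against both groups without lymphatic library 4. Dnajb9 and Pdia4 rose against culture with no such letters in their windows. Of the 4 ATF4 programme genes with the CARE core, Trib3, Chac1 and Slc7a11 did not pass in any comparison and Asns was not testable, whereas Psat1, Psph, Gpt2, Mthfd2 and Slc3a2 rose with no such letters in their windows. Without lymphatic library 4, Chac1 was called higher in the hematogenous group against culture. These windows cover 300 bases each, and elements outside them were not searched.

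In all, 28 of 96 member results were called, beside 25.5% of all gene results over the 3 comparisons. Of the 28, 24 were higher in the group named first. Over all genes 13.4%, 13.9% and 11.4% were called higher and 13.0%, 13.9% and 10.9% lower in the 3 comparisons. At least 1 call was made for 16 of 32 tested members, a share that was not counted over all genes. The library values of the groups did not overlap in 27 of the 28, Herpud1 in the hematogenous group against culture being the exception. A call and a lack of overlap rest on the same values, and this share was not counted over all called genes. Groups did not overlap for 6 of 17 ATF4 and 8 of 15 ER programme genes in the lymphatic group against culture (30.1% of all genes), for 6 and 3 in the hematogenous group against culture (43.6%), and for 3 and 7 between the routes (24.6%). Of the 28 calls, 22 held in all 20 alternatives, and those of Creld2, Ern1, Herpud1 (both of its calls), Pdia6 and Manf against culture did not.

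A further 9 lists of the same pathways, 174 genes without the members, were counted in the same fit, with the symbols of the gene name table. They too were drawn up with earlier results of these data known, and their shares stand beside 26.4%, 27.8% and 22.3% of all genes called in the 3 comparisons. Of 20 cytosolic aminoacyl-tRNA synthetases, which charge tRNAs with amino acids, 11 rose and 0 fell in the lymphatic and 7 rose and 0 fell in the hematogenous group against culture. Between the routes 7 were higher and 1 was lower in the lymphatic group. The shares called, 11 of 20 in the first and 35.0% and 40.0% in the others, were above that of all genes. Nars averaged 421 ± 40.5 CPM in the lymphatic libraries and 260.3 ± 5.85 CPM in culture (SD, n = 4 each), a log2 fold change of 0.69 ± 0.094 (adjusted p = 0.000111). Tars averaged 206 ± 2.79 CPM in the lymphatic, 190.0 ± 14.8 CPM in the hematogenous and 133 ± 10.7 CPM in the culture libraries. Dars averaged 398 ± 52.6 CPM in the lymphatic against 229 ± 13.1 CPM in the hematogenous libraries, higher by 0.80 ± 0.11 (adjusted p = 0.000207).

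Of 13 genes of eIF2 kinases, eIF2B and the eIF2 phosphatase, 6 rose and 1 fell in the lymphatic group against culture, 2 rose and 1 fell in the hematogenous group, and 4 were higher and 0 lower between the routes. The shares called were 53.8%, 23.1% and 30.8%, the second below that of all genes. The gene that fell in both was Eif2ak4, the amino acid sensor GCN2. It averaged 76.4 ± 17.0 CPM in the lymphatic, 80.4 ± 3.46 CPM in the hematogenous and 145 ± 5.77 CPM in the culture libraries, and fell by 0.92 ± 0.14 (adjusted p = 0.00035) and 0.85 ± 0.14 (adjusted p = 0.000518) on the log2 scale. Eif2ak2, the kinase PKR that senses double-stranded RNA and is interferon-inducible, rose by 1.51 ± 0.25 (adjusted p = 0.000476) and 1.07 ± 0.25 (adjusted p = 0.00454). Ppp1r15a, the stress-induced subunit that removes the phosphate from eIF2, averaged 28.7 ± 7.05 CPM in the lymphatic against 13.6 ± 2.30 CPM in the hematogenous libraries, higher by 1.07 ± 0.18 (adjusted p = 0.00101).

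Of 22 other amino acid and one-carbon enzymes tested, 6 rose and 0 fell in the lymphatic group against culture, 3 rose and 3 fell in the hematogenous group, and 7 were higher and 0 lower between the routes. The shares called were 27.3%, 27.3% and 31.8%, in both comparisons with culture near that of all genes. Bcat1, the cytosolic branched-chain aminotransferase, rose in both, at 235 ± 14.5 CPM in the lymphatic, 213 ± 22.4 CPM in the hematogenous and 95.1 ± 1.39 CPM in the culture libraries. Cbs, which opens the route to cysteine, fell in the hematogenous group by 2.36 ± 0.16 on the log2 scale (adjusted p = 1.13e-07), at 18.8 ± 2.39 CPM in the lymphatic, 4.37 ± 0.61 CPM in the hematogenous and 22.5 ± 1.95 CPM in the culture libraries. Cth, the next enzyme of that route, rose in the lymphatic group by 0.98 ± 0.18 against culture (adjusted p = 0.00111). Of 14 other amino acid transporters tested, 3 rose and 2 fell in the lymphatic and 3 rose and 4 fell in the hematogenous group against culture, and 1 was higher and 3 lower between the routes. Slc38a1, a glutamine carrier, averaged 77.4 ± 24.1 CPM in the lymphatic, 273 ± 59.6 CPM in the hematogenous and 27.8 ± 2.35 CPM in the culture libraries, with groups that did not overlap. Slc1a5, another glutamine carrier, fell to 719 ± 112 CPM in the lymphatic and 815 ± 70.2 CPM in the hematogenous libraries, against 1355 ± 14.2 CPM in culture.

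Of 11 other ATF and C/EBP partners and ATF4 targets tested, 1 rose and 3 fell in the lymphatic group against culture, 3 rose and 3 fell in the hematogenous group, and 1 was higher and 3 lower between the routes, or 36.4%, 54.5% and 36.4% called. Ddit4, a stress-induced inhibitor of mTORC1, fell in both, at 28.7 ± 9.72 CPM in the lymphatic, 33.7 ± 13.9 CPM in the hematogenous and 94.9 ± 8.10 CPM in the culture libraries. Atf5, a factor closely related to ATF4, rose in the hematogenous group by 1.49 ± 0.29 (adjusted p = 0.00125), with 24.0 and 18.8 CPM in its libraries 1 and 2 and 10.5 and 10.4 CPM in libraries 3 and 4, against 4.49 to 6.78 CPM in culture.

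On the ER side, Xbp1 had 64.7, 79.0, 64.4 and 91.5 CPM in the lymphatic, 58.6, 63.5, 66.0 and 46.7 CPM in the hematogenous and 82.3, 81.1, 80.4 and 78.2 CPM in the culture libraries. The hematogenous values lay below culture, and Xbp1 fell there by 0.45 ± 0.14 on the log2 scale (adjusted p = 0.0235); its lymphatic value was -0.10 ± 0.14 (adjusted p = 0.618). Of the 10 tested genes of the list that holds it, other unfolded protein response regulators, 1 rose and 0 fell, 1 rose and 2 fell, and 0 were higher and 2 lower, in the 3 comparisons in the same order. Of 31 other ER folding factors the counts were 4 and 1, 3 and 2, and 6 and 5, or 16.1%, 16.1% and 35.5% called. Nucb2, a calcium-binding protein, rose in both lymph node groups, by 1.68 ± 0.14 and 1.69 ± 0.14 (adjusted p = 1.36e-06 and 7.78e-07). Ero1l, the oxidase that recharges the disulfide isomerases, averaged 90.4 ± 22.8 CPM in the lymphatic, 41.0 ± 4.51 CPM in the hematogenous and 98.7 ± 7.13 CPM in the culture libraries.

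Of 19 other ER-associated degradation genes, 2 rose and 3 fell in the lymphatic group against culture, 3 rose and 4 fell in the hematogenous group, and 1 was higher and 4 lower between the routes. The shares called were 26.3%, 36.8% and 26.3%, the first near that of all genes. Derl3, a membrane protein of this pathway that is abundant in plasma cells, averaged 18.0 ± 4.73 CPM in the lymphatic, 42.9 ± 5.76 CPM in the hematogenous and 7.97 ± 1.18 CPM in the culture libraries, in groups that did not overlap. Derl3 rose by 1.17 ± 0.20 and 2.43 ± 0.21 against culture (adjusted p = 0.000765 and 9.58e-07). Of 21 ER translocon and N-glycosylation genes, 0 were called in the lymphatic group against culture by edgeR or limma-voom and 1 by DESeq2, while 4 were higher and 0 lower at an unadjusted p under 0.05. In the hematogenous group 2, Ssr2 and Ssr4, fell, and between the routes 2 were higher and 1 lower in the lymphatic group. In the other lists with 0 genes called in 1 direction, at most 1 gene passed an unadjusted p under 0.05 in that direction, at most 1 by DESeq2 and 0 by limma-voom.

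**Figure D5:**
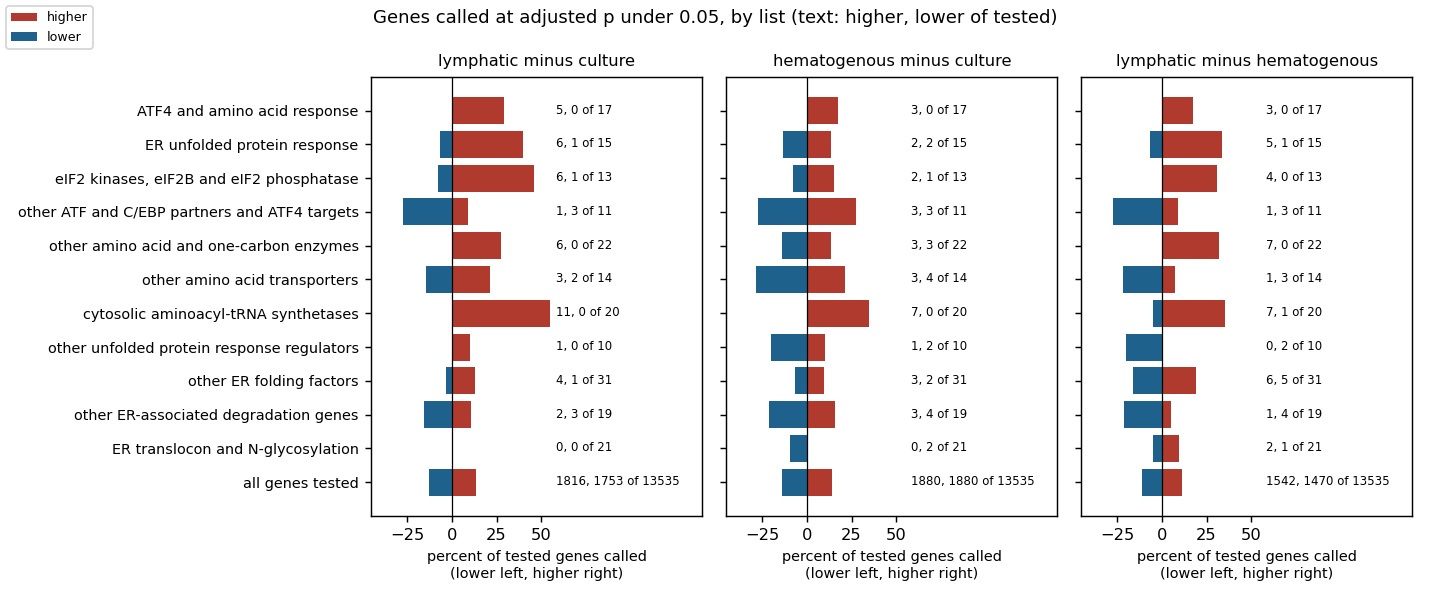
Share of tested genes called higher (red, right of 0) and lower (blue, left of 0) at adjusted p under 0.05, by gene list (rows) and comparison (panels), with the counts higher and lower of those tested beside each bar; the bottom row is all 13535 genes tested. The tRNA synthetases reach 11 of 20 higher in the lymphatic group against culture, where the bottom row shows 1816 higher and 1753 lower.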

How the data were processed

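The 12 poly(A)-selected RNA libraries were stranded and sequenced single-end, per the labels' protocols. The authors deposited raw counts per gene, 1 value per Ensembl ID; per the submitters' processing notes the tools were FastQC 0.11.9, Trimmomatic 0.39, HISAT2 2.1.0 and HTSeq 2.0.2 with build GRCm39, and the HTSeq strand setting is not given in the sources used here. HTSeq's summary lines (reads assigned to no gene, 30.3% to 36.5%) were left out. Symbols came from a gene name table (91.8% of IDs matched). Exon lengths, overlaps and shared windows came from a GRCm38 annotation, promoters from RefSeq (GRCm38.p6).

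The main test was edgeR 4.0.16 (R 4.3.3): filterByExpr, TMM factors, a quasi-likelihood F test on group with all 12 libraries (9 residual degrees of freedom) and Benjamini-Hochberg adjustment over 13535 genes at 0.05. CPM values use the TMM factors; SE was taken from the F statistic. The test was also run on simulated counts with the same spread for all genes and no outlying library. That setting differs from these data, so the run checks the code and not the calls. Alternatives were RLE factors, no filter, at least 1 CPM in 4 libraries, DESeq2 1.42.0, limma-voom 3.58.1, only the groups compared, a replicate block, each library left out and, chosen after seeing the data, lymphatic and culture library 4 left out together. Floors cover counting error only, while the SE comes from the fit and also covers the spread between libraries.

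The members and lists were chosen with earlier results of these data known. All members are named; from each wider list, up to 3 genes per direction and comparison with the largest change could be named, if called, not overlapping and at 10 CPM or more in the higher group, and Xbp1 always. A few listed cell type markers are not reported here and enter no sum.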

Additional observations from a re-analysis of the deposited data

Results flagged for a closer look

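Of 96 groups of 4 libraries examined, 11 had a highest or lowest value whose gap to the nearest of the others as a share of the group's range was over Dixon's 95% critical value, where chance flags about 1 in 20 groups. Of these, 4 were lymphatic library 4, high for Atf4 (439.8 CPM, others 259 to 284), Cebpb (8.10 CPM, others 1.28 to 2.05), Psph (87.8 CPM, others 47.8 to 51.7) and Sdf2l1 (154 CPM, others 56.6 to 64.98). Lymphatic library 2 was low for Ddit3 at 9.17 CPM. In the hematogenous group, library 2 was high for Mthfd2 at 183 CPM, and library 4 was low for Creld2 at 45.8 CPM and for Pdia6 at 309 CPM. In culture, library 2 was high for Gpt2 at 19.3 CPM, library 3 for Hspa5 at 735 CPM and library 1 for Herpud1 at 180.5 CPM.

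The change against culture differed between the lymphatic and the hematogenous group for 9 genes, by the direct test between those groups (log2 difference, lymphatic minus hematogenous). It was 1.00 for Psat1 (adjusted p = 7.57e-05), 1.06 for Psph (adjusted p = 0.00244) and 0.48 for Mthfd2 (adjusted p = 0.00866) in the ATF4 programme. In the ER programme it was 0.69 for Hspa5 (adjusted p = 0.00311), 0.50 for Hsp90b1 (adjusted p = 0.00834), 0.53 for Creld2 (adjusted p = 0.0411), 0.83 for Manf (adjusted p = 0.00727), 0.56 for Pdia6 (adjusted p = 0.0105) and -0.40 for Herpud1 (adjusted p = 0.0213).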

How the results depend on the processing

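Of the 28 calls, 22 held in all 20 alternatives. All 28 held with RLE factors, the stricter filter and DESeq2. Leaving out 1 library gave 5 to 7 (ATF4 programme, 5 with all libraries) and 5 to 8 (ER programme, 7) calls in the lymphatic group against culture, 3 to 8 (3) and 2 to 5 (4) in the hematogenous group against culture, and 3 to 4 (3) and 4 to 8 (6) between the routes. In the hematogenous group against culture, the 8 ATF4 programme calls came without lymphatic library 4, and 5 such calls without lymphatic library 2. Both are libraries of the group not compared. The 2 ER programme calls there came without culture 3 or 4 or hematogenous 1, 3 or 4. With no low-count filter the ATF4 calls were 8 in the lymphatic and 6 in the hematogenous group against culture. Over all genes the calls there also rose, to 4229 and 4129 from a wider set of genes tested (3569 and 3760 in full). With only the groups compared the hematogenous ATF4 calls were 9, and without lymphatic and culture library 4 they were 5. The hematogenous ER calls were 2 by limma-voom. Over all genes the hematogenous calls were 6344 with only the groups compared, 5930 without lymphatic library 4 and 5171 without lymphatic and culture library 4 (3760 in full). Those between the routes were 1734 with only the groups compared and 2002 without hematogenous library 1 (3012 in full). Leaving out 1 library gave 2664 to 4908 calls over all genes in the lymphatic group against culture. It gave 3125 to 5930 in the hematogenous group against culture and 2002 to 4333 between the routes. The member counts above are to be read beside these. The causes were not tested.

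The deviations of 12 same-numbered pairs of libraries correlated at -0.181 to 0.0919, 0 of them over 0.1. Differently numbered pairs were not correlated for comparison, so whether same-numbered libraries were handled together was not tested. With a replicate block the calls were 5, 3 and 3 in the ATF4 and 6, 2 and 5 in the ER programme, and it reversed the sign of Cebpb in the lymphatic group against culture (-0.047) and of Chac1 (0.0093) and Slc7a11 (-0.085) between the routes.

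No called change reversed its sign. Uncalled log2 fold changes that did, over libraries left out in turn, ranged as follows. In the lymphatic group against culture they were -0.042 to 0.12 for Ddit3, -0.76 to 0.53 for Cebpb, -0.029 to 0.30 for Slc7a1 and -0.22 to 0.012 for Slc38a2. In the hematogenous group against culture they were -0.31 to 0.011 for Cebpb, -0.053 to 0.12 for Phgdh, -0.054 to 0.12 for Slc7a1, -0.17 to 0.076 for Sdf2l1, -0.091 to 0.062 for Creld2 and -0.07 to 0.03 for Calr. Between the routes they were -0.24 to 0.064 for Atf4, -0.58 to 0.69 for Cebpb, -0.40 to 0.18 for Trib3, -0.55 to 0.28 for Chac1, -0.42 to 0.015 for Sesn2, -0.059 to 0.26 for Gpt2, -0.14 to 0.22 for Shmt2, -0.27 to 0.25 for Slc7a11 and -0.079 to 0.25 for Slc7a1. Limma-voom reversed Ddit3 (-0.023) and Cebpb (-0.16) in the lymphatic group against culture, and Shmt2 (-0.038), Slc7a11 (-0.063) and Slc7a1 (-0.027) between the routes. Without lymphatic and culture library 4, Ddit3 (-0.092), Cebpb (-0.88, adjusted p = 0.0454), Slc38a2 (0.011), Sdf2l1 (-0.0034) and Calr (-0.0085) reversed against culture, and Cebpb (-0.58), Shmt2 (-0.14) and Slc7a11 (-0.27) between the routes. Asns, Stc2 and Slc7a11 had 3, 5 and 136 counts over the 12 libraries, too few to resolve a change; what part depth has in that was not tested.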
